A study of Homo sapiens with 18 samples.

Results

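The mitochondrial chromosome (chrM) of human cells carries 37 annotated genes, and all 37 were present among the 60662 genes of the deposited count table, from which they were taken by their chromosome alone. They comprised 13 protein-coding genes, 2 ribosomal RNA genes and 22 transfer RNA genes. Of these, 32 had enough counts to be tested among 18592 tested genes: the 13 protein-coding genes, the 2 rRNA genes and 17 tRNA genes. Of the 5 tRNA genes that were not tested, MT-TN had 0 counts in all 18 libraries, and MT-TK, MT-TS1, MT-TD and MT-TA had mean counts between 1.06 and 3.39. The RNA came from MCF10A, an immortalised, non-malignant human breast epithelial line, plated sparsely on compliant polyacrylamide gels coated with Matrigel, a basement membrane extract, and grown in medium with horse serum, EGF, insulin, cholera toxin and hydrocortisone. In the 3D groups the medium after attachment contained 2% Matrigel, which sets around the cells, and in the 2D groups it contained none. Both cultures were sampled at 3 timepoints, with harvests listed at 3, 12 and 21 h after plating and matched here to timepoints 1, 2 and 3 by their order only. Each of the 6 groups (3D and 2D at each timepoint) had 3 libraries. One library, replicate 1 of the 2D group at timepoint 3, did not enter the tests, since the labels name only the raw counts among its files; that group was tested with n = 2, and the values of the left-out library are given apart.

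Human mitochondrial DNA is transcribed from both strands into long precursors, from which the tRNAs are cut out as punctuation between the rRNAs and mRNAs. Most of the mRNAs then receive poly-A tails, the rRNAs receive short ones, and tRNAs are finished with a CCA end instead. All 13 proteins are membrane subunits of the oxidative phosphorylation complexes, which breast epithelial cells, like most cells, assemble from these subunits and many more that the nucleus encodes. The libraries were made from RNA bound to oligo(dT) beads, fragmented to between 200 and 300 bases and read for 50 bases from one end. Values therefore describe RNA that this selection captured. The tRNA genes were 59 to 75 bases long, shorter than those fragments, and whether reads at tRNA genes came from mature tRNAs or from longer precursor RNA was not tested. Which strand was counted is not stated, so reads from the opposite strand of a chrM gene cannot be told apart from its own; 28 of the genes lie on the strand marked + and 9 on the strand marked -.

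Sequences are given for the members on which the results turn, from GENCODE v29 transcripts of GRCh38 (hg38), whose chrM gene spans were the same as those in the count table. MT-ATP8 at chrM:8366-8572 (+ strand) and MT-ND4L at chrM:10470-10766 (+ strand) were the 2 members called in the culture comparison, and each is read out of one transcript with the gene that follows it. Below, mRNAs stands for the 13 protein-coding genes, counted gene by gene, although the 2 genes of each such pair share a transcript. Capitals mark the last 46 bases of MT-ATP8, which are also the start of MT-ATP6, and the last 7 bases of MT-ND4L, which are also the start of MT-ND4.
MT-ATP8: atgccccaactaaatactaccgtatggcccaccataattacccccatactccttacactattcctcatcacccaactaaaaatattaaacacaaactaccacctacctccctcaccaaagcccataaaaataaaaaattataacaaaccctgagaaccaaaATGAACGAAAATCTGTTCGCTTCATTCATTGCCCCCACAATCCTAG
MT-ND4L: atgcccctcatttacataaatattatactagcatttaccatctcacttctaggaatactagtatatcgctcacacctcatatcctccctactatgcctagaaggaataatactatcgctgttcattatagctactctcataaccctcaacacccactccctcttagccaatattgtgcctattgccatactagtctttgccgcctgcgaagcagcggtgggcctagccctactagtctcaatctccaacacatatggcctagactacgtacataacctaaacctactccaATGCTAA
MT-TY at chrM:5826-5891, MT-TC at chrM:5761-5826 and MT-TE at chrM:14674-14742, all on the - strand, are the tRNA genes with the highest mean counts. They are shown because MT-TY and MT-TC had small positive differences at timepoint 2, where the mRNAs and MT-TE had negative ones. Capitals mark the anticodon letters for tyrosine, cysteine and glutamate.
MT-TY: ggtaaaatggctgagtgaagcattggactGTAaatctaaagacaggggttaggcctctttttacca
MT-TC: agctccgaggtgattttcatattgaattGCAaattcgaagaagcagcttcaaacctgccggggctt
MT-TE: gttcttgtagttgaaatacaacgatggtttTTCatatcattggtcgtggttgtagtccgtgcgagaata

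Library totals in the header of the deposited log2 table ran from 9.31 M to 17.7 M, and the summed gene counts, from 49.8 M to 93.9 M, were 4.73 to 5.73 times those totals. How reads were counted is not stated, and each chrM gene has 1 annotated transcript. All 9 breast epithelial markers had a median above 1 CPM over the 18 libraries (CPM, the count scaled to a common library size by the TMM method), from 16.3 CPM for EPCAM to 4597 CPM for KRT5. Of the fibroblast markers COL3A1 was at 0 in all libraries and COL1A1 had a median of 3.07 CPM. CD3E was at 0 in all libraries, PTPRC, VWF, CDH5 and ADIPOQ had medians of 0, CD14 and CD68, which other cells also express, had medians of 10.8 and 15.5 CPM, PECAM1 1.15 CPM and PLIN1 0.14 CPM.

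The 37 genes together took 0.364% to 1.25% of all counts, meaning the summed gene counts. The share was lowest in 3D cultures at timepoints 2 and 3. At timepoint 1 it was 1.21%, 0.976% and 0.541% in the 3D libraries of replicates 1, 2 and 3, against 1.17%, 1.25% and 0.658% in the 2D libraries, and the groups overlapped. At timepoint 2 it was 0.364% to 0.482% in 3D, against 0.908% to 1.18% in 2D, with no overlap. At timepoint 3 it was 0.533%, 0.429% and 0.398% in 3D, against 0.589% and 0.684% in the fitted 2D libraries and 0.783% in the one left out, again with no overlap. Replicate 3 had the lowest share at timepoint 1 in both cultures. Of the smaller header totals, which the left-out library lacks, the 37 genes took 2.02% to 5.91%. At timepoint 2 they took 2.02%, 2.62% and 2.75% of them in 3D, against 5.86%, 4.82% and 4.71% in 2D, also without overlap. As the way of counting is not stated, neither percentage can be read as the share of sequenced reads. In bulk RNA, fewer cells rich in these transcripts and less of this RNA per cell cannot be told apart.

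Most of these counts came from mRNAs. The 13 protein-coding genes took 0.232%, 0.341% and 0.357% of all counts in 3D libraries at timepoint 2, against 0.948%, 0.731% and 0.691% in 2D libraries. Every 3D value lay below every 2D value, and the ratio of group means, 3D over 2D, was -1.35 on the log2 scale with a pooled SD of 0.30. At timepoint 1 the ratio was -0.19 with a pooled SD of 0.64, and at timepoint 3 it was -0.59 with a pooled SD of 0.25.

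The rRNA share was also smaller in 3D at timepoint 2, by less than the mRNA share. MT-RNR1 and MT-RNR2, which form the small and large subunit RNAs of the mitochondrial ribosome, took 0.126%, 0.112% and 0.119% of all counts in 3D, against 0.225%, 0.177% and 0.210% in 2D, with no overlap and a log2 ratio of -0.78 (pooled SD 0.14). Among chrM counts alone, the rRNAs therefore held 24.4% to 34.7% in 3D, against 19.0% to 23.1% in 2D. The log2 ratio of the rRNA share was -0.09 (pooled SD 0.33) at timepoint 1 and -0.22 (pooled SD 0.098) at timepoint 3. The 22 tRNA genes never exceeded 0.0098% of all counts. Their log2 ratio was -0.16 (pooled SD 0.41), -0.62 (pooled SD 0.24) and 0.21 (pooled SD 0.25) at timepoints 1, 2 and 3. These ratios are descriptions and no test was made of them. They come from unscaled counts, whereas CPM and log2 fold changes of genes use TMM scaling. At timepoint 2 the scaling factors were 0.848 to 0.898 in 3D and 1.06 to 1.12 in 2D. Share ratios and log2 fold changes of genes are therefore not on one scale.

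**Figure D1:**
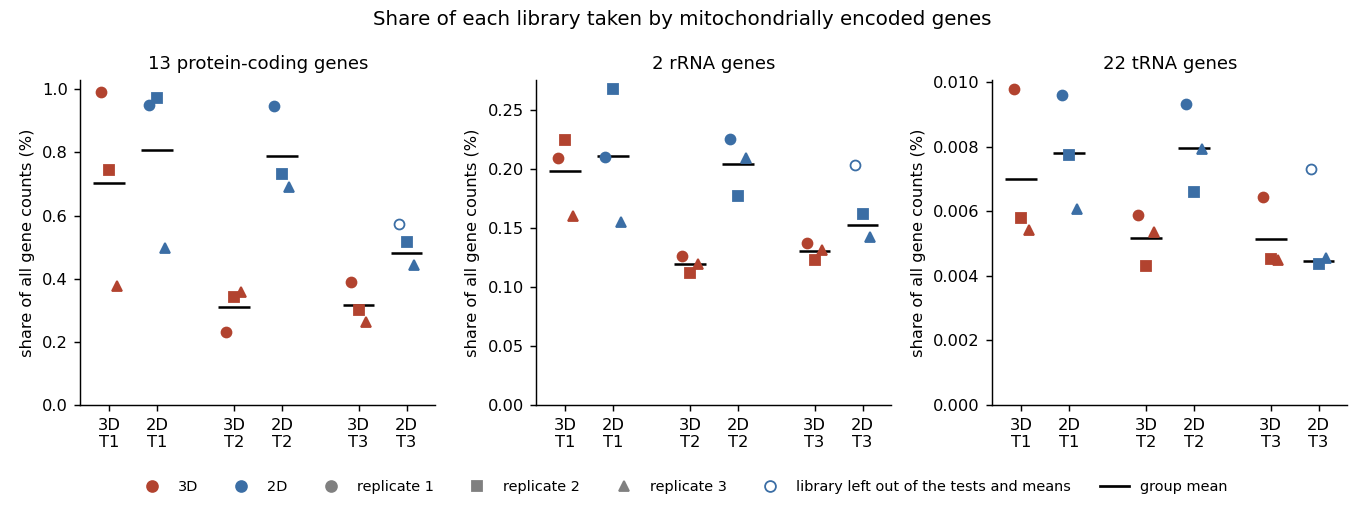
Share of all gene counts (percent, one linear axis per panel) taken by the 13 protein-coding, 2 rRNA and 22 tRNA genes of chrM, with 1 point per library shaped by replicate number, 3D left of 2D at each timepoint, a bar at the group mean, and the library left out of the tests and means drawn open. The protein-coding points of 3D timepoint 2 lie between 0.232% and 0.357%, all below the 2D points of 0.691% to 0.948%, while the groups overlap at timepoint 1.

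Levels were compared among members per kilobase of gene, since longer genes gather more reads. Averaged over the 17 fitted libraries, MT-CO2, a catalytic subunit of cytochrome c oxidase, was first at 1155 CPM per kb, followed by the large rRNA MT-RNR2 at 826 and MT-CO3 at 800 CPM per kb. MT-CO2 ranged from 634 to 1809 CPM per kb over single libraries, so the order of neighbours such as MT-RNR2 and MT-CO3 lies within the spread. The complex I genes MT-ND4L, MT-ND2, MT-ND5 and MT-ND6 stood lowest of the mRNAs at 286, 229, 216 and 209 CPM per kb. MT-TY, at 532 CPM per kb, ranked 7th of all 37 in this average, but its rank varied with the group: it was 3rd in 3D and 9th in 2D at timepoint 2, at 614 CPM per kb in 3D and 552 CPM per kb in 2D. The next tRNAs were MT-TE at 118 and MT-TC at 89.7 CPM per kb. As tRNA genes are shorter than the library fragments, dividing by their length does not put them on one scale with the mRNAs. MT-TY and MT-TC also share base 5826.

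At timepoint 2 the ATP synthase gene MT-ATP8 and the complex I gene MT-ND4L were lower in 3D than in 2D. The other 11 protein-coding genes had negative differences that missed the threshold in this fit and passed with libraries compared within replicate numbers. Among them were MT-ATP6 and MT-ND4, which share their transcripts with MT-ATP8 and MT-ND4L. Tests used edgeR's quasi-likelihood method on the counts with Benjamini-Hochberg adjustment over all 18592 genes and a threshold of 0.05, and log2 fold changes are 3D over 2D. In this fit 2 of the 32 tested members were lower and 0 higher, where 0.785% of all genes were lower. With the replicate number as a block, 21 of 32 members, or 65.6%, were lower and 0 higher, where 6.86% of all genes were lower. The 21 were all 13 mRNAs, MT-RNR2 and 7 tRNA genes. Without the block, DESeq2 called 18 members, where it called 7.19% of all genes in either direction, and limma-voom called 9, where it called 2.19%. The same replicate number stands with one shared date in the labels of all groups. In every one of the 13 mRNAs no 3D value reached any 2D value, where 13% of all tested genes were lower in 3D without overlap. It follows that the 3D library was below the 2D library of its number in all 3 pairs.

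MT-ATP8 encodes a small membrane subunit of the ATP synthase, complex V. It had 38.5, 37.2 and 33.9 CPM in 3D at timepoint 2, against 161, 94.9 and 101 CPM in 2D. All 3D values lay close together, and the lowest 2D value was above all of them. The log2 fold change was -1.71 (SE 0.34, adjusted p = 0.026 by edgeR). MT-ND4L, a membrane subunit of complex I, the NADH dehydrogenase, had 31.4, 54.4 and 41.9 CPM in 3D, against 144, 107 and 98.1 CPM in 2D. The groups did not overlap, and the log2 fold change was -1.45 (SE 0.33, adjusted p = 0.046 by edgeR). The count of 2 became 0 without any one of the 3 2D libraries or without 3D replicate 1 or 3: leaving out 1 library at a time, the adjusted p of MT-ATP8 was 0.0504 to 0.100 and that of MT-ND4L 0.0491 to 0.151, under the threshold in 1 of 6 fits.

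Among the remaining complex I genes the adjusted p values by edgeR missed the threshold and those with the replicate block passed it. MT-ND4, MT-ND6, MT-ND5 and MT-ND2 had log2 fold changes of -1.20, -1.20, -1.17 and -1.16 (SE 0.30 to 0.32), with adjusted p between 0.060 and 0.068 and, with the block, between 0.015 and 0.021. MT-ND1 had -1.05 (SE 0.26, adjusted p = 0.055, and 0.013 with the block) and MT-ND3 had -0.69 (SE 0.25, adjusted p = 0.145, and 0.0078 with the block). MT-ND6 is the one mRNA on the - strand and is known for having little or no poly-A tail. It had 47.3, 73.3 and 81.0 CPM in 3D, against 196, 129 and 139 CPM in 2D. Its groups did not overlap, as with the mRNAs of the other strand.

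MT-CYB, the cytochrome b of complex III, had 274, 485 and 498 CPM in 3D at timepoint 2, against 933, 827 and 747 CPM in 2D. The log2 fold change was -0.996 (SE 0.26, adjusted p = 0.065 by edgeR, and 0.019 with the block). The 3 cytochrome c oxidase genes of complex IV, which reduces oxygen, had the median closest to 0 of the complexes, though MT-ND3 of complex I was closer to 0 than any of them. MT-CO1, its main catalytic subunit, had 375, 733 and 686 CPM in 3D, against 1287, 1231 and 983 CPM in 2D, and replicate 1 was the lowest of the 3D libraries. Its log2 fold change was -0.96 (SE 0.28, adjusted p = 0.080, and 0.022 with the block). MT-CO2 had -0.76 (SE 0.23, adjusted p = 0.094, and 0.024 with the block) and MT-CO3 -0.74 (SE 0.23, adjusted p = 0.099, and 0.021 with the block). MT-ATP6, the proton channel subunit of complex V, had -1.12 (SE 0.31, adjusted p = 0.071, and 0.016 with the block). By complex, the median log2 fold change was -1.17 for the 7 genes of complex I, -0.996 for the 1 gene of complex III, -0.76 for the 3 genes of complex IV and -1.41 for the 2 genes of complex V. Over all 13 mRNAs the median was -1.12, beside -0.03 for all tested genes. These differences between complexes were not tested.

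**Figure D2:**
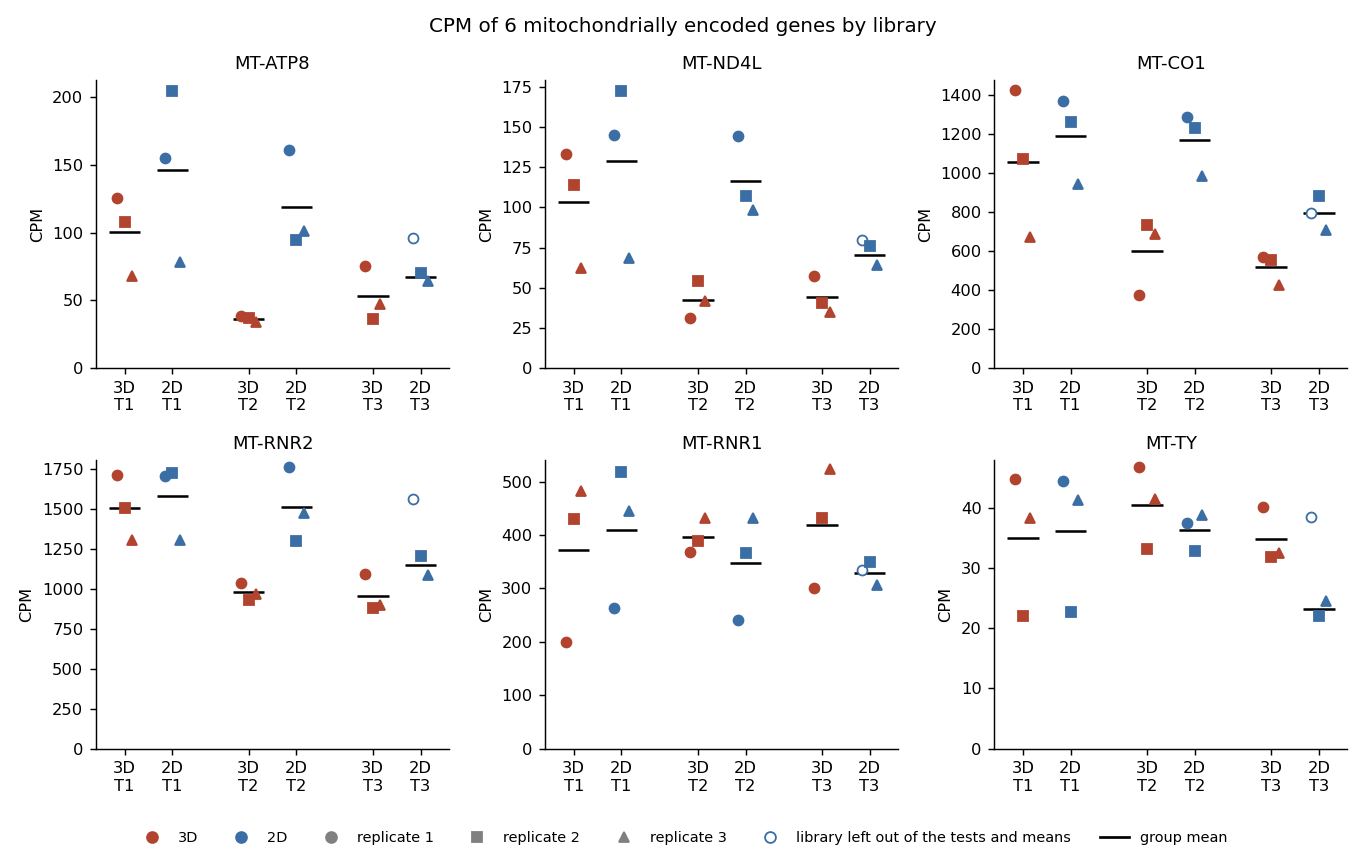
Level of MT-ATP8, MT-ND4L, MT-CO1, MT-RNR2, MT-RNR1 and MT-TY in each library (CPM, linear axes from 0), with 3D left of 2D at each timepoint, 1 point per library shaped by replicate number, a bar at the group mean, and the library left out of the tests and means drawn open. MT-ATP8 and MT-ND4L at timepoint 2 lie at 31.4 to 54.4 CPM in 3D, all below the 2D points of 94.9 to 161 CPM, whereas MT-RNR1 and MT-TY overlap there.

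The rRNAs and the abundant tRNAs did not share one direction at timepoint 2. MT-RNR2 had 1039, 929 and 967 CPM in 3D, against 1763, 1297 and 1473 CPM in 2D, with no overlap and a log2 fold change of -0.63 (SE 0.17, adjusted p = 0.067 by edgeR, and 0.0050 with the block). MT-RNR1 had 369, 388 and 431 CPM in 3D, against 241, 366 and 432 CPM in 2D, so the groups overlapped and only 1 of 3 pairs was lower in 3D. Its log2 fold change was 0.19 (SE 0.31, adjusted p = 0.77, and 0.35 with the block). MT-TY had 46.8, 33.2 and 41.6 CPM in 3D, against 37.5, 32.9 and 39.0 CPM in 2D. Each 3D library was above the 2D library of its number, though the groups overlapped, and the log2 fold change was 0.15 (SE 0.26, adjusted p = 0.77). MT-TC had 8.51, 6.03 and 6.32 CPM in 3D, against 6.48, 6.25 and 6.31 CPM in 2D, with a log2 fold change of 0.13 (SE 0.28, adjusted p = 0.83). When scaled by the header totals, these 3 positive differences became -0.01, -0.04 and -0.06, on a scale where the median of all genes was -0.23.

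MT-TE, which lies beside MT-ND6 on the - strand, had 4.44, 4.24 and 6.18 CPM in 3D, against 16.3, 8.62 and 9.48 CPM in 2D, without overlap. Its log2 fold change was -1.21 (SE 0.39, adjusted p = 0.10 by edgeR, and 0.022 with the block). The 6 other tRNA genes called with the block were MT-TL1, MT-TW, MT-TR, MT-TH, MT-TS2 and MT-TL2, with log2 fold changes from -2.20 for MT-TR to -1.13 for MT-TL1, of which MT-TW and MT-TR had mean counts of 19.4 and 15.2 per library. The median of the 17 tested tRNA genes was -1.13. Over all classes, 13 mRNAs, 1 rRNA and 11 tRNA genes had lower values in every 3D library than in any 2D library at timepoint 2, and 13% of all tested genes did so.

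Other measures moved with this difference. Ribosomal protein genes of the nucleus took 15.2% to 20.9% of all counts in 3D at timepoint 2, against 10.1% to 12.6% in 2D. The summed counts were 5.54 to 5.73 times the header totals in 3D, against 4.96 to 5.26 times in 2D. MALAT1, a long noncoding RNA held in the nucleus, had 79.8 ± 16.1 CPM in 3D, against 235 ± 99.8 CPM in 2D (SD, n = 3 each), a log2 fold change of -1.56 (SE 0.34, adjusted p = 0.038 by edgeR). NEAT1, another nuclear RNA, had 34.8 ± 12.1 CPM in 3D, against 92.6 ± 15.05 CPM in 2D, a log2 fold change of -1.41 (adjusted p = 0.056, and 0.0065 with the block). The part of these measures in the difference of the chrM genes was not tested.

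Counts from nuclear copies of mitochondrial genes were small beside those of chrM. Of 407 genes of the table whose names mark them as such copies, 21 had a mean count of at least 1 and 5 of at least 100. Together they had 0.437% to 0.763% of the chrM count of the same library. The most abundant, MTATP6P1, a copy of MT-ATP6 and its neighbours, had 17.1 ± 4.72 CPM in 3D at timepoint 2, against 35.9 ± 6.43 CPM in 2D (SD, n = 3 each), with a log2 fold change of -1.07 (SE 0.30, adjusted p = 0.071 by edgeR, and 0.013 with the block). Its count was 5.12% to 9.70% of that of MT-ATP6, and reads that match both may have been split between them.

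At timepoint 1 no member passed the test. By edgeR 0 of 32 members were lower (0% of all genes were lower) and 0 higher, 0 had an unadjusted p under 0.05, where 1.31% of all genes had one, and DESeq2 and limma-voom also called 0. MT-ATP8 had 126, 108 and 67.8 CPM in 3D, against 155, 204 and 78.5 CPM in 2D, and MT-CO1 had 1423, 1070.3 and 673 CPM in 3D, against 1366, 1259.9 and 940.1 CPM in 2D. In both genes and both cultures replicate 3 was lowest, and the groups overlapped. The 13 mRNAs had log2 fold changes from -0.54 for MT-ATP8 to -0.15 for MT-CO2, with a median of -0.19, MT-RNR1 had -0.14 and MT-RNR2 -0.07. Among the abundant tRNAs MT-TY had -0.04, MT-TC -0.03 and MT-TE -0.29. Of all members, 1 tRNA gene, MT-TL2, named after its values were seen, had every 3D value below every 2D value, where 1.84% of all genes did.

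At timepoint 3 the mRNAs stood lower in 3D by a smaller amount that did not pass the test. By edgeR 0 members were lower (1.26% of all genes were lower) and 0 higher. With the block 0 were lower (5.3% of all genes) and 0 higher, and DESeq2 and limma-voom called 0. At an unadjusted p under 0.05 there were 2 of 32, MT-ND1 and MT-TL2, where 19.1% of all genes had one. MT-ND4L had 57.5, 40.3 and 34.8 CPM in 3D, against 76.2 and 64.2 CPM in 2D, and MT-CO1 had 567, 555 and 425 CPM in 3D, against 881 and 709 CPM in 2D. In both genes the groups did not overlap, and the 2D library left out, with 79.8 CPM for MT-ND4L and 795 CPM for MT-CO1, also lay above the 3D values. MT-ATP8 had 75.2, 36.2 and 47.6 CPM in 3D, against 70.1 and 64.2 CPM in 2D, and overlapped. The median of the 13 mRNAs was -0.48, from -0.67 for MT-ND4L to 0.03 for MT-ND3. All 13 were lower in 3D in both pairs of equal replicate number, and the share of all genes lower in both pairs was not counted. There were 7 mRNAs and 4 tRNA genes whose groups did not overlap, lower in 3D, where 20.2% of all genes did so.

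MT-TY was the 1 member whose timepoint 3 groups did not overlap in the other direction, where 18.9% of all genes did. It had 40.2, 31.97 and 32.6 CPM in 3D, against 22.1 and 24.5 CPM in 2D, but the left-out 2D library had 38.6 CPM, within the 3D range. The log2 fold change was 0.58 (SE 0.29, adjusted p = 0.29 by edgeR). MT-RNR1 had a log2 fold change of 0.35, MT-TC of 0.40 and MT-TE of 0.23, none past the threshold, and MT-RNR2 had -0.26. MT-RNR1 had 301, 432 and 524 CPM in 3D, against 350.2 and 307 CPM in 2D, which overlapped.

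**Figure D3:**
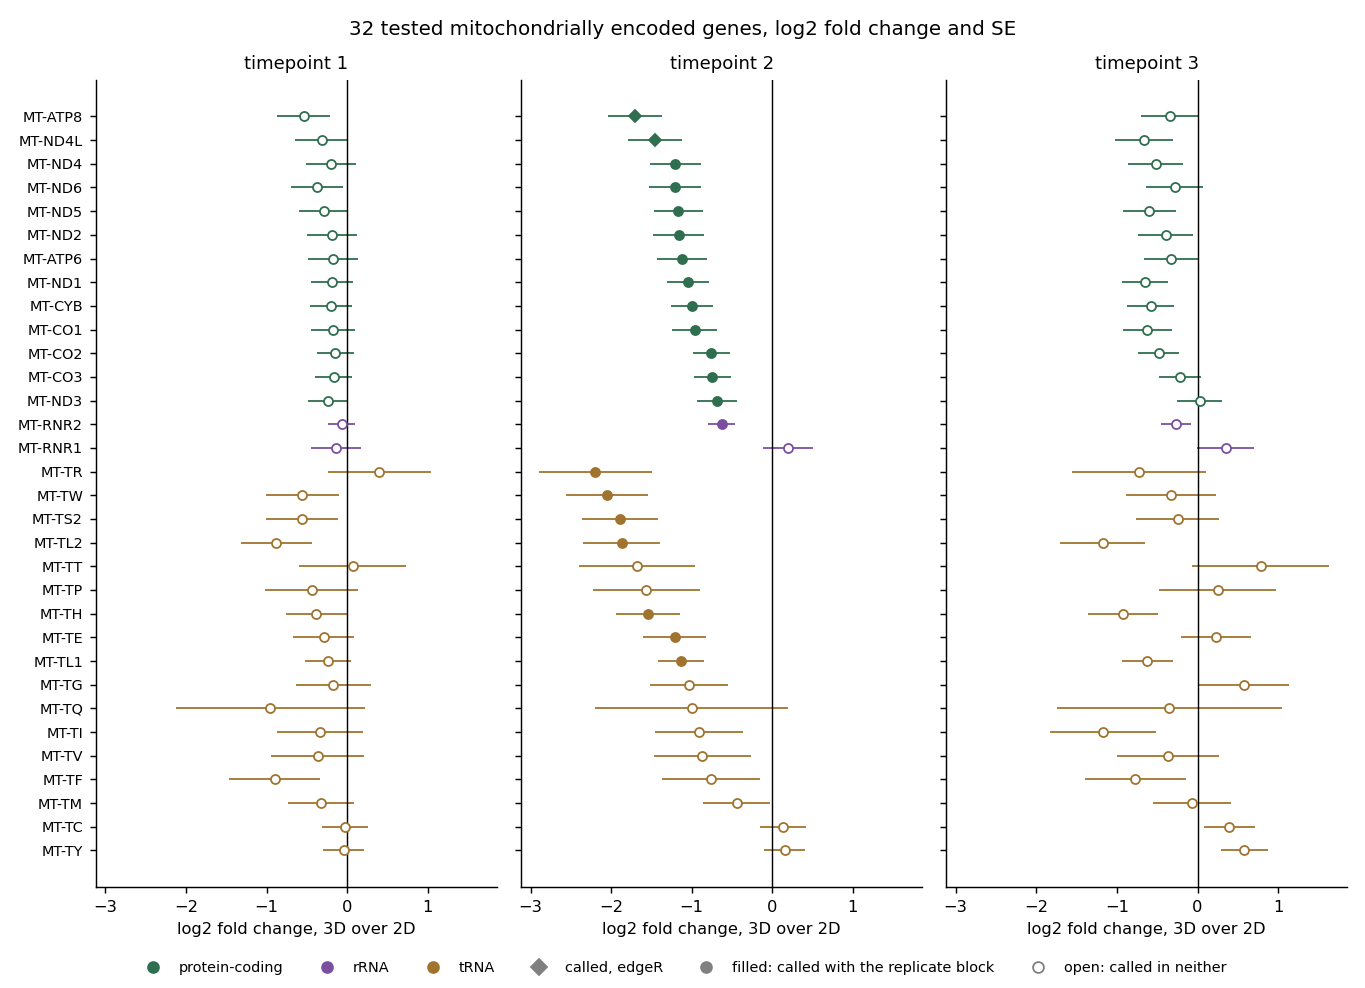
Log2 fold change, 3D over 2D, of the tested chrM genes at timepoints 1, 2 and 3, with bars of 1 SE either side, ordered by class and by the value at timepoint 2. Diamonds were called by edgeR at an adjusted p under 0.05, filled circles with the replicate block only, and open circles in neither fit. All 13 mRNAs lie below 0 at timepoint 2, from -1.71 to -0.69, while MT-RNR1, MT-TY and MT-TC lie slightly above 0.

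The authors' deposited table for timepoint 2 listed 22 chrM genes, and 14 of them had an adjusted p under 0.05 and were lower in 3D, where 2.11% of all genes of the authors' deposited table were lower. In the authors' deposited table MT-ATP8 had a log2 fold change of -1.71 (adjusted p = 0.018), MT-ND4L -1.52 (adjusted p = 0.029) and MT-RNR2 -0.66 (adjusted p = 0.042). For MT-RNR1, MT-TY and MT-TC the authors' deposited table had 0.18, 0.10 and 0.08. In the authors' deposited tables of timepoints 1 and 3, 0 of the 22 genes had an adjusted p under 0.05, and the median log2 fold changes were -0.25, -1.14 and -0.40 at timepoints 1, 2 and 3.

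Within 3D culture the lower level was reached between timepoints 1 and 2. By edgeR 15 members were lower at timepoint 2 than at timepoint 1 (9 mRNAs, MT-RNR2 and the tRNA genes MT-TL1, MT-TW, MT-TH, MT-TS2 and MT-TP) and 0 higher, where 7.76% of all genes were lower; with the block 18 were lower, where 13.6% of all genes were. MT-ATP8 was lower by the largest amount of the mRNAs, with 38.5, 37.2 and 33.9 CPM at timepoint 2 and 126, 108 and 67.8 CPM at timepoint 1, and the timepoints did not overlap. Its log2 fold change, later over earlier, was -1.46 (SE 0.33, adjusted p = 0.0092). MT-ND4L had -1.28 (SE 0.33, adjusted p = 0.018), MT-RNR2 -0.63 (SE 0.17, adjusted p = 0.021), MT-TW -1.86 (SE 0.51, adjusted p = 0.024) and MT-ATP6 -1.12 (SE 0.31, adjusted p = 0.025). MT-CO1 with -0.82 (adjusted p = 0.055) passed with the block alone (adjusted p = 0.033), as did MT-TG and MT-TR, and MT-ND6 with -0.87 (adjusted p = 0.077) passed in neither fit. The count depended on single libraries: it was 1 without 3D timepoint 1 replicate 1, 2 without replicate 2 and 23 without replicate 3 of that group, and 2, 5 and 5 without 3D timepoint 2 replicates 1, 2 and 3.

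At timepoint 3 in 3D, 13 members were lower than at timepoint 1 (10 mRNAs, MT-RNR2, MT-TL1 and MT-TH), where 6.95% of all genes were; with the block 17 were lower, where 12.5% of all genes were. Between the 15 and the 13, 11 members were shared, and the comparisons share the timepoint 1 libraries. MT-CO2 had a log2 fold change of -0.90 (SE 0.23, adjusted p = 0.019), MT-RNR2 -0.66 (SE 0.17, adjusted p = 0.019), MT-ND1 -1.02 (SE 0.26, adjusted p = 0.020), MT-CO1 -1.03 (SE 0.28, adjusted p = 0.024) and MT-ND4 -1.17 (SE 0.31, adjusted p = 0.024). MT-ND4L had -1.22 (adjusted p = 0.026), while MT-ATP8 with -0.92 (adjusted p = 0.085) and MT-ND6 with -0.91 (adjusted p = 0.079) passed with the block alone (adjusted p = 0.021 and 0.039), as did MT-TR and MT-TL2. The count was 0 without 3D timepoint 1 replicate 1 or 3D timepoint 3 replicate 3, and 2 without 3D timepoint 1 replicate 2 or 3D timepoint 3 replicate 2. From timepoint 2 to timepoint 3 in 3D, edgeR, DESeq2 and limma-voom called 0 members, 0 had an unadjusted p under 0.05 (5.12% of all genes had one), and 0% of all genes were lower by edgeR. The median of the 13 mRNAs was then -0.04, with 0.54 for MT-ATP8.

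In 2D culture edgeR called no member between timepoints. At timepoint 2 against timepoint 1, edgeR, DESeq2 and limma-voom called 0 members (3.22% of all genes were lower by edgeR), 0 had an unadjusted p under 0.05, where 18.5% of all genes had one, and the median of the 13 mRNAs was -0.04, with -0.29 for MT-ATP8. At timepoint 3 against timepoint 2, the 3 methods called 0 members and edgeR put 0% of all genes lower, but 14 of 32 members had an unadjusted p under 0.05, where 6.82% of all genes had one. The median of the mRNAs was -0.73, with -0.83 for MT-ATP8, -0.96 for MT-ND6, -0.55 for MT-CO1 and -0.40 for MT-RNR2. Timepoint 3 rested on n = 2 in this and the next comparison. The left-out library had 95.9, 112 and 1563 CPM for MT-ATP8, MT-ND6 and MT-RNR2, above both fitted libraries. Its MT-ATP8 and MT-RNR2 values lay within the 2D range of timepoint 2. For MT-CO1, at 795 CPM, it lay between the fitted libraries. At timepoint 3 against timepoint 1 edgeR called 0 members (2.36% of all genes were lower), limma-voom 0 and DESeq2 3, where DESeq2 called 8.54% of all genes in either direction, and 18 of 32 had an unadjusted p under 0.05, where 19.1% of all genes had one. With the block 1 was lower, MT-TG, where 5.13% of all genes were, and without 2D timepoint 1 replicate 3 edgeR called 2. The median of the mRNAs was -0.74, with -1.12 for MT-ATP8 (adjusted p = 0.11) and -0.58 for MT-CO1.

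The difference between cultures in these time courses was tested as an interaction. From timepoint 1 to timepoint 2, edgeR, DESeq2 and limma-voom called 0 members, 0% of all genes had a lower interaction by edgeR, and 12 of 32 members had an unadjusted p under 0.05, where 8.73% of all genes had one. The median of the 13 mRNAs was -0.86, and MT-ATP8 had -1.17 (SE 0.46, adjusted p = 0.56). From timepoint 2 to timepoint 3 the 3 methods again called 0 members with 0% of all genes lower by edgeR, and 6 of 32 members had an unadjusted p under 0.05, where 4.67% of all genes had one. The median was then 0.69, and MT-ATP8 had 1.36 (SE 0.50, adjusted p = 0.82). The change over time was thus not shown to differ between 3D and 2D.

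Ratios between members of one library need no scaling between libraries, and 4 of them were tested over culture and time by exact two-sided permutation within timepoints or cultures, 12 tests in all. The ratio of the small to the large rRNA, MT-RNR1 over MT-RNR2, was 35.5%, 41.8% and 44.6% in 3D at timepoint 2, against 13.7%, 28.3% and 29.3% in 2D. At timepoint 3 it was 27.6%, 49.2% and 58.5% in 3D, against 29.05% and 28.2% in 2D and 21.4% in the left-out library. At timepoint 1 it was 11.7%, 28.5% and 37.0% in 3D, against 15.5%, 30.0% and 34.0% in 2D. The 3D values were all above the 2D values at timepoint 2 only, and replicate 1 was lowest in all 6 groups when the left-out library is counted. Over the 3 timepoints the log2 difference, 3D minus 2D, was 0.44 (exact permutation p = 0.143, adjusted p = 0.411). Permuted within replicate numbers it was 0.55 (exact permutation p = 0.0469, adjusted p = 0.281).

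The other ratios set neighbouring genes, or genes annotated on opposite strands, against each other. MT-ATP8 over MT-ATP6, the overlapping ATP synthase pair, was 22.8%, 17.1% and 13.6% in 3D at timepoint 2, against 27.7%, 23.5% and 25.1% in 2D, without overlap. Its log2 difference over the timepoints was -0.28 (exact permutation p = 0.061, adjusted p = 0.411), and within replicate numbers -0.32 (exact permutation p = 0.0391, adjusted p = 0.281). MT-ND4L over MT-ND4, the complex I pair, was 8.79%, 9.48% and 6.53% in 3D, against 9.81%, 9.72% and 9.29% in 2D, and differed by -0.14 over the timepoints (exact permutation p = 0.178, adjusted p = 0.411). MT-ND6, annotated on the - strand, over the other 12 mRNAs, annotated on the + strand, was 1.87%, 1.86% and 1.97% in 3D, against 2.38%, 1.91% and 2.26% in 2D. It differed by -0.06 over the timepoints (exact permutation p = 0.485, adjusted p = 0.535). As the counted strand is not stated, this ratio compares gene positions and cannot separate the RNA of the strands. None of the 8 tests over time passed either, with adjusted p between 0.411 and 0.68.

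A further set of ratios was chosen after the values were seen and is given with no test. MT-TY over MT-CO1, genes that lie next to each other on opposite strands, was 12.5%, 4.52% and 6.05% in 3D at timepoint 2, against 2.92%, 2.67% and 3.96% in 2D. At timepoint 3 it was 7.10%, 5.76% and 7.67% in 3D, against 2.51% and 3.46% in 2D and 4.86% in the left-out library. The groups did not overlap at either timepoint. MT-TE over MT-ND6, neighbours on the same strand, was 9.39%, 5.78% and 7.62% in 3D at timepoint 2, against 8.30%, 6.71% and 6.82% in 2D, and overlapped.

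**Figure D4:**
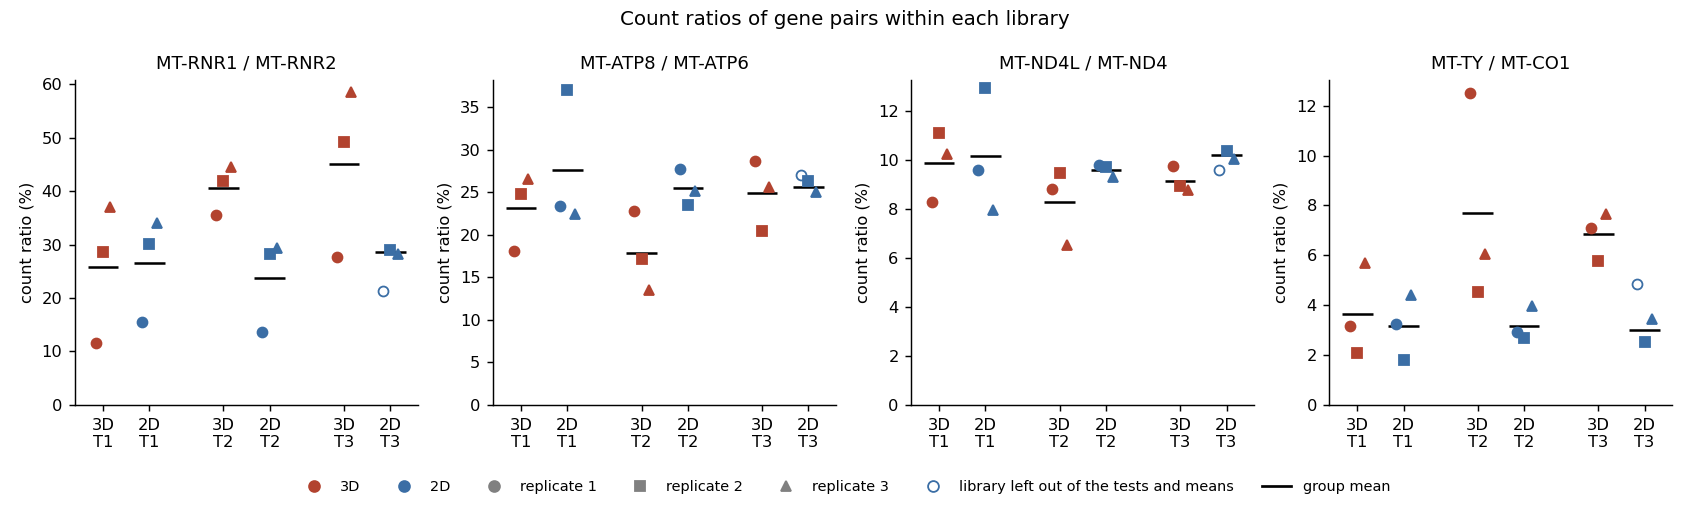
Count ratios between chrM genes in each library (percent, linear axes), with 3D left of 2D at each timepoint, 1 point per library shaped by replicate number, a bar at the group mean and the left-out library drawn open. MT-RNR1 over MT-RNR2 at timepoint 2 lies at 35.5% to 44.6% in 3D, all above 13.7% to 29.3% in 2D, and MT-ATP8 over MT-ATP6 lies at 13.6% to 22.8% in 3D, all below 23.5% to 27.7% in 2D.

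Protein-coding genes were also grouped by how their reading frame ends, a property that ties some mRNAs to their poly-A tails. In 6 of the 13 the annotated gene stops at 1 or 2 letters of the stop codon, which polyadenylation completes. The median log2 fold change at timepoint 2 was -1.02 for these 6 and -1.17 for the 7 whose gene holds the whole codon. The ranges overlapped, at -1.20 to -0.69 and -1.71 to -0.76. The last base of MT-ATP6, in the group of 7, is also the first base of MT-CO3 (chrM:9207). The grouping follows annotated spans only, and whether cut MT-ATP6 RNA keeps its whole stop codon was not tested.

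The subunits that the nucleus adds to the same complexes had mostly positive differences at timepoint 2. Of 42 such genes, chosen with earlier results of these data known, edgeR called 0 higher (0.705% of all genes were) and 0 lower, and with the block 17 were higher, where 9% of all genes were, and 0 lower. Their median log2 fold change was 0.60, from -0.19 to 1.16, and 38 of 42 were above 0. ATP5F1E, the epsilon subunit of the ATP synthase, had 190 ± 28.6 CPM in 3D, against 84.8 ± 8.83 CPM in 2D (SD, n = 3 each), a log2 fold change of 1.16 (SE 0.30, adjusted p = 0.060 by edgeR, and 0.0095 with the block). UQCRB of complex III had 507 ± 62.0 CPM in 3D, against 312 ± 40.1 CPM in 2D, with 0.70 (adjusted p = 0.11, and 0.0095 with the block). COX7B of complex IV had 284 ± 35.3 CPM in 3D, against 135 ± 6.01 CPM in 2D, with 1.07 (adjusted p = 0.083, and 0.011 with the block). The ribosomal protein share, given above, was also higher in these 3D libraries, and its part in this was not tested.

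The same list had a median of 0.01 at timepoint 1 with 0 calls in both fits, and of 0.26 at timepoint 3 with 0 calls by edgeR. At timepoint 3 the block put UQCRB, ATP5F1C and ATP5PF higher, 3 of 42, where 4.45% of all genes were higher. Within 3D, 10 of the 42 were higher at timepoint 2 than at timepoint 1 and 0 lower, where 7.31% of all genes were higher, and with the block 24 were higher, where 14.8% were, and 1 lower. The median was 0.59, and ATP5F1E had 1.25 (adjusted p = 0.012).

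**Figure D5:**
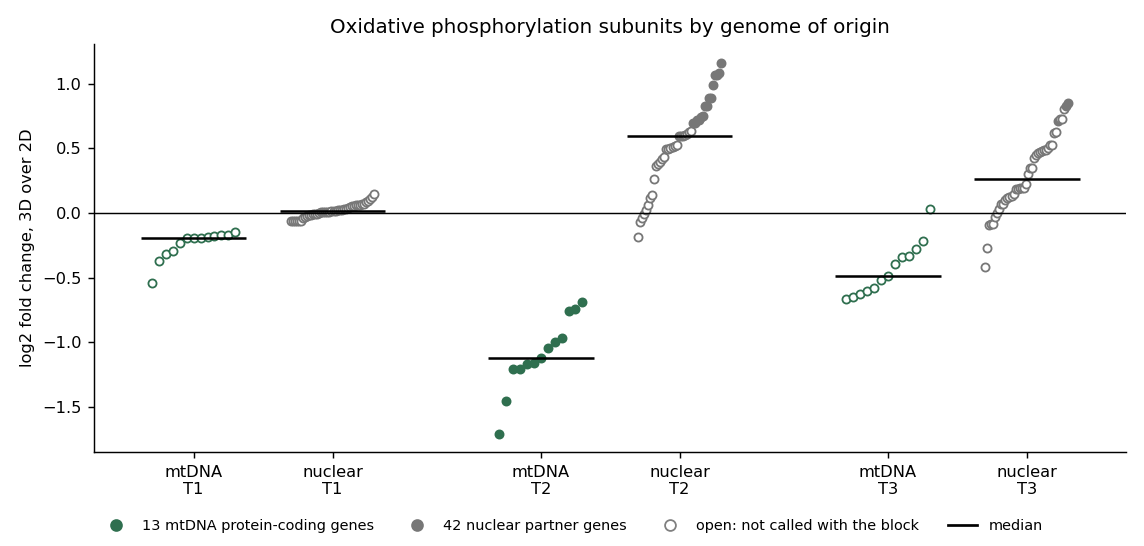
Log2 fold change, 3D over 2D, at timepoints 1, 2 and 3 of the 13 chrM mRNAs and the 42 listed nuclear subunits of the same complexes, with 1 point per gene, filled where called with the replicate block, and a line at the median. At timepoint 2 the chrM medians and nuclear medians are -1.12 and 0.60, and at timepoint 1 they are -0.19 and 0.01.

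Among factors that make and handle mitochondrial RNA, few passed a test. With the block at timepoint 2, 9% of all genes were higher and 6.86% lower, and the counts of the lists below lie near or under those shares except for the lower mitophagy genes. At timepoint 1 both fits called 0 in each of these lists. Of 25 genes for transcription and maintenance of mitochondrial DNA, edgeR called 0 at timepoint 2, and with the block SSBP1 and DGUOK were higher and SLC25A36 lower, with a list median of 0.07. TFAM, which packages the DNA and starts transcription, had 18.6 ± 7.92 CPM in 3D, against 16.8 ± 4.83 CPM in 2D (SD, n = 3 each), a log2 fold change of 0.15 (SE 0.32, adjusted p = 0.83). At timepoint 3 TFAM had 26.0 ± 8.02 CPM in 3D (SD, n = 3), against 12.4 ± 3.29 CPM in 2D (n = 2), a log2 fold change of 1.06 (SE 0.37, adjusted p = 0.16 by edgeR, and 0.048 with the block). There the block called TFAM and SSBP1 higher and 0 lower, 2 of the 25, where 4.45% of all genes were higher. POLRMT, the mitochondrial RNA polymerase, had 20.1 ± 3.56 CPM in 3D, against 21.6 ± 0.29 CPM in 2D, with -0.10 at timepoint 2 (SE 0.17, adjusted p = 0.78). Of 38 genes of mitochondrial RNA processing and decay, edgeR called 0, and with the block SLIRP and REXO2 were higher and 0 lower, with a median of 0.07. At timepoint 3 the block called 1 of the 38 higher, TRMT10C, and 0 lower.

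LRPPRC and SLIRP form a complex that binds and stabilises mitochondrial mRNAs. SLIRP had 367 ± 47.4 CPM in 3D at timepoint 2, against 202 ± 21.2 CPM in 2D (SD, n = 3 each), a log2 fold change of 0.86 (SE 0.28, adjusted p = 0.11 by edgeR, and 0.022 with the block). LRPPRC had 78.6 ± 19.4 CPM in 3D, against 99.5 ± 15.1 CPM in 2D, with -0.34 (SE 0.20, adjusted p = 0.34, and 0.11 with the block). PNPT1, the mitochondrial RNA-degrading phosphorylase, had 24.1 ± 9.58 CPM in 3D, against 25.4 ± 6.99 CPM in 2D, with -0.08 (adjusted p = 0.92). Of 15 regulators of mitochondrial biogenesis edgeR called 0, the block put PPARGC1B lower, and the median was -0.17. The coactivator PPARGC1A averaged under 1 CPM, with 0.545 ± 0.452 CPM in 3D, against 0.745 ± 0.362 CPM in 2D. Of 14 mitophagy genes edgeR called 0 at timepoint 2 and the block called 1 higher, BNIP3, and 2 lower, NBR1 and ULK1. At timepoint 3 edgeR called 1 lower, the autophagy receptor SQSTM1, with 609 ± 41.9 CPM in 3D (n = 3), against 1563 ± 292 CPM in 2D (n = 2), a log2 fold change of -1.36 (SE 0.20, adjusted p = 0.0031). With the block it was joined there by NBR1 and ULK1, and FUNDC1 was higher, where 5.3% of all genes were lower and 4.45% higher.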

How the data were processed

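Per the submitters' processing notes, the tools were STAR 2.7.1a, HOMER, edgeR and limma, the genome build was hg38, and their roles are not told; the gene annotation and the counted strand are not given in the sources at hand. The authors deposited whole-number counts, not normalised. The authors' deposited log2 table (13677 genes, 17 libraries) holds log2 CPM, of which only the header totals were used, and the deposited tables per timepoint hold log2 fold changes and adjusted p-values of the authors, besides t and log odds score columns that were not used. All tests used the counts, on 17 of 18 libraries: genes were kept by filterByExpr, scaled by TMM and tested over 6 group means with the quasi-likelihood test of edgeR 4.0.16 (R 4.3.3), with Benjamini-Hochberg adjustment over all genes. Standard errors are the fitted log2 difference over the root of the F statistic. The labels do not say whether replicates are separate cultures, so p-values measure the spread between these libraries. Replicate numbers were taken to pair libraries, since the labels give each number one date in all groups. Deviations from group means correlated at 0.19 to 0.51 within the 8 pairs. Libraries of different numbers were not compared in this way. The timepoint 3 pairs are not independent of each other, as their 2D group had n = 2. The common dispersion was 0.0686, and 0.0363 with the block. Alternatives were DESeq2 1.42.0, limma-voom (limma 3.58.1), other scalings and filters, all 18 libraries, the groups alone, the replicate block and leaving out each library. The fit was tested on simulated data. The members and lists were chosen with earlier results of these data known. All mRNAs, rRNAs, called tRNA genes and the 3 most abundant tRNA genes were named in culture comparisons, and in time comparisons up to 5 called members and 5 fixed ones.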

Additional observations from a re-analysis of the deposited data

How the results depend on the processing

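The direction of the mRNA difference at timepoint 2 held in every alternative run, and the number of genes called did not. The 13 mRNAs were below 0 in 130 of 130 values over 10 alternatives (-1.90 to -0.65) and in 78 of 78 values with 1 library left out (-1.85 to -0.48). No 3D value reached any 2D value in these genes, so leaving out 1 library could hardly turn a sign. All these values come from refits of the same libraries and are not separate checks. MT-ATP8 was called in 10 of 10 alternatives and in 0 of 6 fits with a library left out, and MT-ND4L in 9 of 10 (adjusted p = 0.0565 with all 18 libraries) and 1 of 6. At timepoint 2 edgeR called 2 chrM genes, where 0.785% of all genes were lower and 0.705% higher. Below, brackets hold the share of all genes called in either direction in the same setting. That share is not given for fits with 1 library left out. The count was 17 with header library totals (2.64%) and 21 without the filter on low counts (4.41%). With a stricter filter of at least 50 counts in 3 libraries it was 13 (2.92%). It was 1 with all 18 libraries (0.453%), 21 with the replicate block (15.9%) and 12 with the groups alone (4.83%). It was 9 with limma-voom (2.19%), 18 with DESeq2 (7.19%), and 0 to 2 with 1 library left out. In 3D, the 15 genes at timepoint 2 against 1 became 2 with the groups alone (6.83%) and 1 to 23 with 1 library left out. The 13 at timepoint 3 against 1 became 0 to 19 with 1 library left out. In 2D, 0 genes at timepoint 3 against 2 became 3 without the filter, and 0 at timepoint 3 against 1 became 10 without the filter, 1 with the replicate block, 3 with DESeq2 and 0 to 2 with 1 library left out. The interactions of 0 genes became 2 (0.798%) and 1 (0.366%) without the filter. The cause of these changes was not tested. The rRNA share at timepoint 2 moved to -0.63 with header totals. Those totals replace the denominator of all classes, so the mRNA and tRNA log2 ratios also moved towards 0. Of the header totals the mRNAs took 1.28%, 1.95% and 2.04% in 3D at timepoint 2, against 4.70%, 3.85% and 3.58% in 2D. With all 18 libraries, an alternative added after the data were seen, the rRNA and tRNA shares at timepoint 3 moved to -0.38 and -0.069.

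Values near 0 changed sign. With header totals, which put the median of all genes at -0.23 at timepoint 2, MT-RNR1 was -0.0097, MT-TY -0.044 and MT-TC -0.063 there, MT-ND6 was 0.050 and MT-RNR2 0.054 at timepoint 3 against 2 in 3D, and MT-ND6, MT-CO1 and MT-RNR2 were 0.030, 0.058 and 0.022 at timepoint 2 against 1 in 2D. MT-ND3 at timepoint 3 was -0.026 with upper-quartile scaling, -0.063 with header totals, -0.26 with all 18 libraries, -0.19 with the replicate block and -0.010 with limma-voom, and MT-TE there was -0.15 with all 18 and -0.045 with the block. With 1 library left out, the culture difference at timepoint 1 ran from -0.55 to 0.020 for MT-ND1, -0.61 to 0.088 for MT-ND2, -0.45 to 0.069 for MT-CO1, -0.40 to 0.055 for MT-CO2, -0.60 to 0.12 for MT-ATP6, -0.43 to 0.034 for MT-CO3, -0.60 to 0.090 for MT-ND4, -0.46 to 0.042 for MT-CYB, -0.38 to 0.16 for MT-RNR1, -0.19 to 0.029 for MT-RNR2, -0.29 to 0.20 for MT-TY, -0.82 to 0.0043 for MT-TE and -0.26 to 0.23 for MT-TC. At timepoint 2 it ran from -0.013 to 0.38 for MT-RNR1 and -0.040 to 0.21 for MT-TC, and at timepoint 3 from -0.25 to 0.16 for MT-ND3 and -0.067 to 0.41 for MT-TE. Timepoint 3 against 2 in 3D ran from -0.18 to 0.26 for MT-ND4L, -0.24 to 0.12 for MT-ND6 and -0.14 to 0.023 for MT-RNR2. Timepoint 2 against 1 in 2D ran from -0.58 to 0.029 for MT-ATP8, -0.44 to 0.12 for MT-ND4L, -0.29 to 0.13 for MT-ND6, -0.16 to 0.084 for MT-CO1 and -0.19 to 0.036 for MT-RNR2. The log2 ratio of MT-ND6 over the other 12 mRNAs at timepoint 2 against 1 ran from -0.027 to 0.088. The other chrM gene values in alternatives gave 884 on the same side, 85 that newly passed and 5 that no longer passed. The calls that the replicate block added are named in the results, and it removed none.

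Depth limits the tRNA genes most: 5 were not tested, and MT-TW, MT-TP, MT-TR, MT-TV, MT-TI and MT-TQ had mean counts under 20 per library. MT-TP and MT-TW were called in 3D at timepoint 2 against 1. Their 3D counts at timepoint 2 were 7, 3 and 5 for MT-TP and 5, 9 and 3 for MT-TW. The poly-A selection, the unstated strand and the counts above the header totals limit what a level means.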
